A study of Mus musculus with 6 samples.

Results

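Semaphorins and their plexin and neuropilin receptors were examined in the RNA of bone marrow LSK cells from a mouse model of Phf6 mutation. LSK cells are lineage-negative, Sca-1-positive and c-Kit-positive, the gate that enriches blood stem cells and early progenitors. The members were chosen by gene symbol alone (Sema with a class number and letter, Plxna to Plxnd with a number, Nrp1 and Nrp2), which gave 31 protein-coding genes of 54532 genes in the files. They comprise 20 semaphorins, taken as the ligands, and 11 receptors, namely 9 plexins and 2 neuropilins. The family was taken up with earlier results of these data known, among them the large falls of Sema6b and Sema3d, so these genes are described with no test.

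The 3 Vav1-Cre libraries were labelled Vav1-Cre; Phf6fl-R274X/Y, and the 3 floxed libraries were labelled Phf6fl-R274X/Y, with no Cre. All 6 libraries therefore came from males with the floxed R274X allele of the X-linked gene Phf6, which encodes a nuclear PHD finger protein. R274X is a premature stop codon, and Vav1-Cre is a recombinase driven by a promoter active in blood cells. Neither the age of the mice nor the number of mice behind a library is given in the labels, and p-values therefore reflect the scatter of libraries alone, part of which may be technical. Cre was in every Vav1-Cre library and in no floxed library, so its own effect and that of the mutation cannot be told apart.

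Semaphorins share an extracellular sema domain and were first known as guidance cues that steer growing axons. Plexins are their main receptors, and the cytoplasmic part of a plexin acts on small GTPases of the Rap and R-Ras type, which control adhesion through integrins and the actin skeleton. Most secreted class 3 semaphorins need a neuropilin beside a plexin, whereas the membrane-bound classes bind plexins directly. In blood and immune cells the pathway is known for its roles in cell contact, migration and lymphocyte activation.

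Libraries held 15406314 to 16896472 counts in the Vav1-Cre group and 17200917 to 18106065 counts in the floxed group. Phf6 averaged 9.01 ± 1.08 CPM in Vav1-Cre libraries and 31.6 ± 1.98 CPM in floxed libraries (SD, n = 3 each). CPM is a gene's count relative to the depth of its library, scaled between libraries by the TMM method. Immunoglobulin genes took 4.45% to 7.95% of counts in Vav1-Cre libraries and 0.293% to 1.18% in floxed libraries. Summed markers of B cells ran from 1427 to 2909 CPM in Vav1-Cre libraries and from 324 to 768 CPM in floxed libraries. Summed markers of the stem and progenitor gate ran from 1225 to 1386 CPM in Vav1-Cre libraries and from 1654 to 1730 CPM in floxed libraries. In bulk RNA, fewer cells of a type and less RNA per cell cannot be told apart.

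The bases just upstream of the start sites are shown for Sema3d, Sema6b, Sema3g and Sema6d, since these 4 had the largest fold differences among members with a mean of at least 1 CPM in both groups. Windows came from RefSeq on GRCm38.p6, and 26 of the 31 members had one. Each sequence is the 250 bases before the start site on the gene's own strand, 5′ to 3′, and capitals mark a match to the letters CCGGAA.
Sema3d (chr5:12382916-12383165, plus strand): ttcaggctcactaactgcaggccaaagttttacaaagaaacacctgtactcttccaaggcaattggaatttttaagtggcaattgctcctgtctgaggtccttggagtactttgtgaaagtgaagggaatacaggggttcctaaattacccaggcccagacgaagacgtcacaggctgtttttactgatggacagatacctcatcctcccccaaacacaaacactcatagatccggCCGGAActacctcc
Sema6b (chr17:56140344-56140593, minus strand): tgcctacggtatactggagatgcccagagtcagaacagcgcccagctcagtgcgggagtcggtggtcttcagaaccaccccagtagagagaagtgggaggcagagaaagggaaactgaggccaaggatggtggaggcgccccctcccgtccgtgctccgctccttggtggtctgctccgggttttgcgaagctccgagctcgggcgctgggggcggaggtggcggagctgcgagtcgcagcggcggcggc
Sema3g (chr14:31217623-31217872, plus strand): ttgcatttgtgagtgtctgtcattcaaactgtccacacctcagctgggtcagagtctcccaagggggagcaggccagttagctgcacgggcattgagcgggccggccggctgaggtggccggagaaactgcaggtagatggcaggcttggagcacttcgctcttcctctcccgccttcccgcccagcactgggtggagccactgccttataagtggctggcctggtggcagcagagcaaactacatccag
Sema6d (chr2:124089719-124089968, plus strand): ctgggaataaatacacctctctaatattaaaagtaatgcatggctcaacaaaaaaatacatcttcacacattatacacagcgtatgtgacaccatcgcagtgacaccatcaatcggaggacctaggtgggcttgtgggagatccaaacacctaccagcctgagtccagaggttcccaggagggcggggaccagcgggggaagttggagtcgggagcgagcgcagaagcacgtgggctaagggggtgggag
The start site used for Sema3d lies 219 bases from that of the GENCODE annotation, and that of Sema3g lies 13 bases away. The Sema6b window was rich in G and C, at 66.0% with 20 CpG pairs. The Sema3d window had 46.8% and 4 CpG pairs, against medians of 52.4% and 6 over all windows. Letters bound by 3 families of blood transcription factors were searched on both strands. AGATAA, for the GATA family, occurred in 9.99% of all 32851 windows. TGTGGT, for the RUNX family, occurred in 14.0% and CCGGAA, for the ETS family, in 12%. Among the members, 6 of 26 windows held any match, and no matches in a window overlapped. Of the windows printed, Sema3d held an ETS match that begins 14 bases before the start site, and Sema6b, Sema3g and Sema6d held none of the 3 motifs.

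Levels were compared between genes in FPKM, a unit per kilobase of transcript, as deposited. A member was called expressed where its mean over the 6 libraries was at least 0.5 FPKM, and this split was chosen on the measured values. It held for 16 of 31 members, 10 ligands and 6 receptors. The expressed ligands were Sema3d, Sema3g, Sema4a, Sema4b, Sema4c, Sema4d, Sema4f, Sema4g, Sema6b and Sema7a. The expressed receptors were Nrp1, Plxna1, Plxna3, Plxnb2, Plxnc1 and Plxnd1. Just inside the threshold were Sema4f at 0.502 FPKM and Nrp1 at 0.639 FPKM, and just outside it were Sema6c at 0.368 FPKM and Sema6d at 0.225 FPKM. Thresholds of 0.1 and 1 FPKM gave 20 and 8 members.

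The ligand side was led by membrane-bound class 4 semaphorins. Sema4d, known as CD100 and a ligand of plexin B1 and of CD72 on lymphocytes, made up 31.3% of the summed FPKM of all semaphorins. Its level was 9.04, 10.05 and 9.91 FPKM in Vav1-Cre libraries and 10.78, 9.19 and 8.78 FPKM in floxed libraries. Sema4a, a class 4 semaphorin that acts on T cells, made up 22.8%, and Sema4b made up 16.2%. Together these 3 genes held 70.3% of semaphorin FPKM. On the receptor side Plxnb2, Plxnd1 and Plxnc1 held 33.1%, 27.3% and 24.8% of the summed FPKM, or 85.2% together. Plxnb2 measured 7.19, 6.34 and 5.76 FPKM in Vav1-Cre libraries and 5.58, 4.40 and 5.26 FPKM in floxed libraries. Plxnb1, the receptor best known for binding Sema4d, was too low to be tested, with 6, 6 and 4 counts in Vav1-Cre libraries and 19, 19 and 4 counts in floxed libraries.

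**Figure D1:**
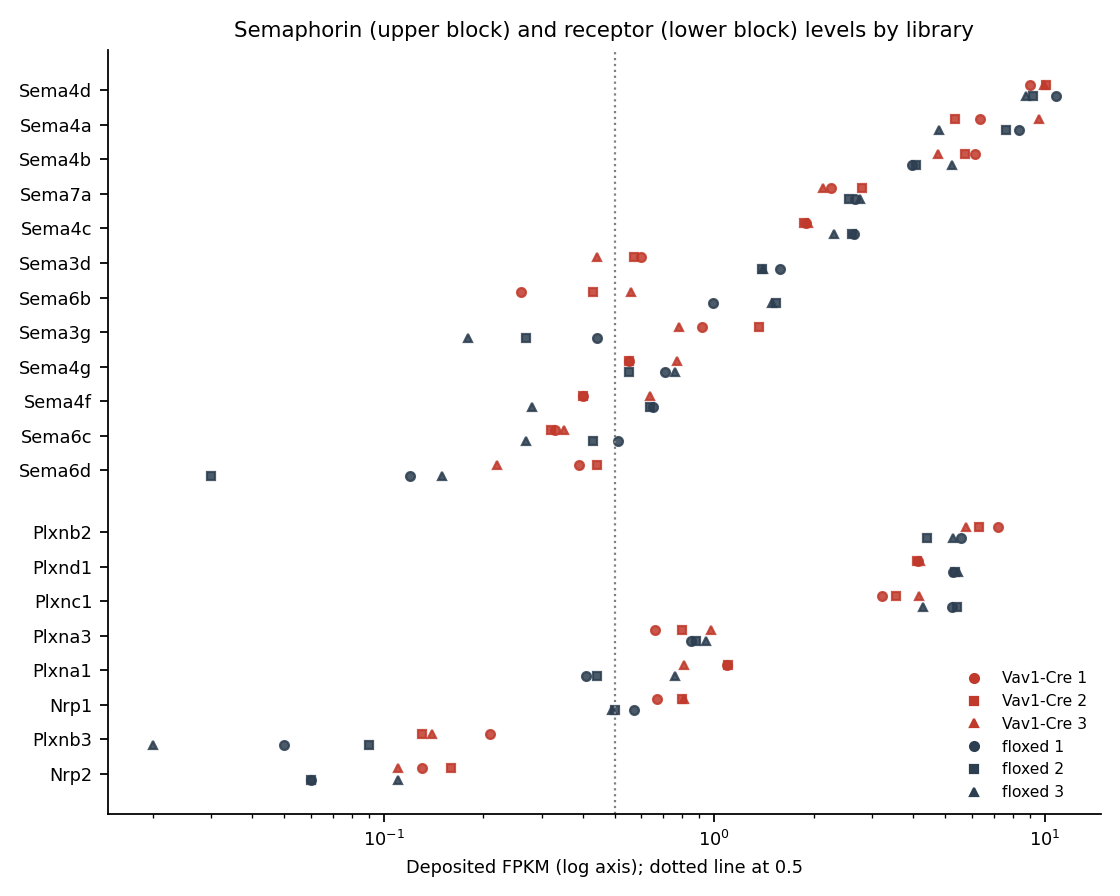
Deposited FPKM (horizontal log axis) of the 20 members with a mean of at least 0.1 FPKM, ligands above and receptors below, with 1 point for each of the 3 Vav1-Cre and 3 floxed libraries and a dotted line at 0.5 FPKM. Sema4d leads the ligands at 8.78 to 10.78 FPKM and Plxnb2 the receptors at 4.40 to 7.19 FPKM.

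Of the 31 members, 21 passed the filter on low counts (13 ligands and 8 receptors), and 8 of these differed between the groups at an adjusted p under 0.05 in edgeR's quasi-likelihood test over all genes. That is 38.1%, beside a background of 17.9% of all 14608 tested genes. In the Vav1-Cre libraries 4 members were higher (Sema3g, Sema6a, Sema6d and Plxna1) and 4 lower (Sema3d, Sema6b, Plxnc1 and Plxnd1), beside a background of 10.1% higher and 7.89% lower. These counts describe the members and support nothing, since they include Sema6b and Sema3d and genes that the filter admitted through the Vav1-Cre libraries. The filter asked for 3 libraries over its level, which 0 floxed libraries reached for Sema6a, 1 for Plxnb3 and 2 for Sema6d, against all 3 Vav1-Cre libraries. Without Sema6b and Sema3d 6 of 19 passed (31.6%), and without Sema6a, Plxnb3 and Sema6d as well 4 of 16 (25%). Groups did not overlap for 12 of the 21 tested members (57.1%), 7 higher and 5 lower in the Vav1-Cre libraries, beside 37.2% of all tested genes. Without Sema6b, Sema3d, Sema6a, Plxnb3 and Sema6d, groups did not overlap for 7 of 16 (43.8%). The median log2 fold change of the tested members was 0.00, against -0.02 over all tested genes.

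Leaving out 1 library changed the member count. It was 4 without Vav1-Cre 1, Vav1-Cre 2, floxed 1 or floxed 2, in each case 1 higher (Sema3g) and 3 lower (Plxnd1, Sema3d and Sema6b). It was 9 without Vav1-Cre 3 (5 higher, 4 lower) and 8 without floxed 3 (4 higher, 4 lower). Among genes with a mean count of at least 50 it was 6, 1 higher and 5 lower. These member counts include Sema3d and Sema6b, whose falls were known beforehand, and support nothing. The counts over all genes moved as well, between 1218 and 3295 of 2621 in the full set. With limma on log2(FPKM + 1) 4 members passed, 1 higher and 3 lower. With no filter on low FPKM in that test, the adjusted p was 0.0737 for Sema3g, 0.0517 for Plxnd1 and 0.168 for Sema6d.

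**Figure D2:**
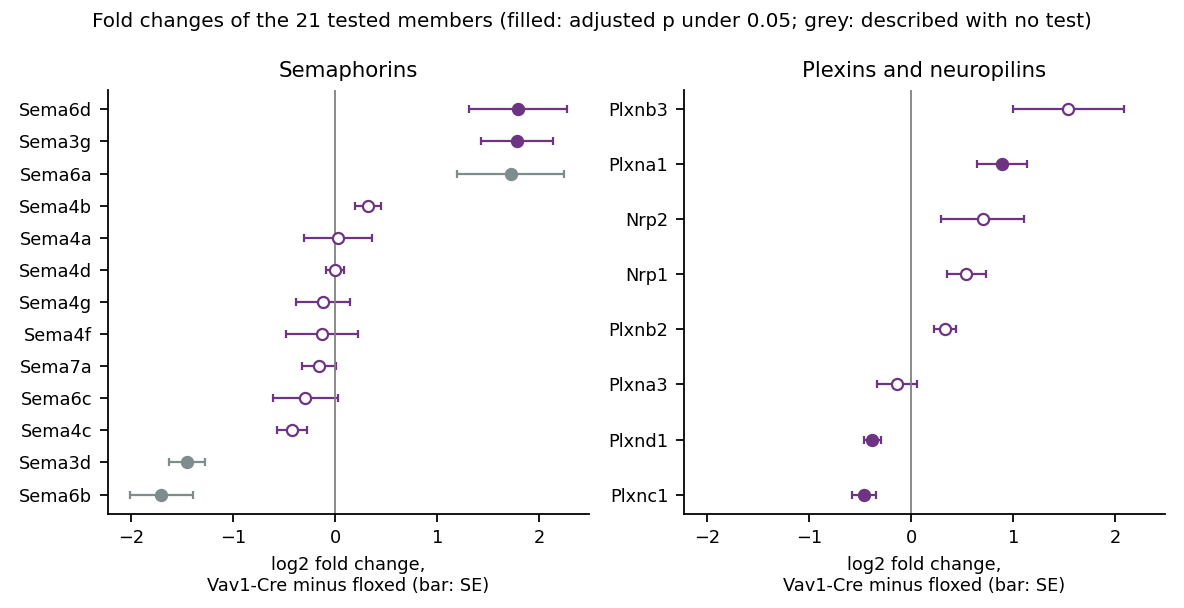
Log2 fold change of CPM (Vav1-Cre over floxed, edgeR) with its SE for the 21 tested members, ligands and receptors in separate panels. Filled points passed an adjusted p of 0.05 over all genes, and Sema6b, Sema3d and Sema6a, in grey, are described with no test. The count filter also admitted Sema6d and Plxnb3 through the Vav1-Cre libraries, so the filled point of Sema6d gives no support for a rise. Values run from -1.70 for Sema6b to 1.79 for Sema6d.

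The class 3 semaphorins, which are secreted, were mostly below the filter on low counts. Sema3a, Sema3b, Sema3c, Sema3e and Sema3f did not pass it. Sema3c, a guidance cue of the heart outflow tract, had 0 counts in all 6 libraries, which allows up to 0.166 to 0.195 CPM before scaling (3 counts per library, counting error only). Sema3f, a ligand of neuropilin-2, had the most counts of these 5, with 4, 8 and 3 in Vav1-Cre libraries and 2, 7 and 2 in floxed libraries.

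Sema3d and Sema3g, the class 3 semaphorins with measurable levels, moved in opposite directions. Sema3d, a secreted cue that acts on endothelial cells and neural crest (ENSMUSG00000040254, chromosome 5, 12383385 to 12588948, GRCm38), measured 5.17, 4.89 and 3.81 CPM in Vav1-Cre libraries and 13.71, 12.11 and 12.06 CPM in floxed libraries. Every Vav1-Cre library lay below every floxed library, and the mean was 4.63 ± 0.719 CPM in Vav1-Cre libraries and 12.6 ± 0.940 CPM in floxed libraries (SD, n = 3 each). The log2 fold change was -1.45 (SE 0.175). Sema3g, a class 3 semaphorin of blood vessels that binds neuropilin-2 (ENSMUSG00000021904, chromosome 14, 31217860 to 31230352), measured 4.20, 6.22 and 3.55 CPM in Vav1-Cre libraries and 2.01, 1.23 and 0.807 CPM in floxed libraries. All Vav1-Cre libraries were above all floxed libraries, with a log2 fold change of 1.78 (SE 0.356, edgeR adjusted p = 0.00532), and the adjusted p stayed at or below 0.0395 whichever library was left out. Summed over class 3, the level was 1.57, 2.04 and 1.26 FPKM in Vav1-Cre libraries and 2.06, 1.73 and 1.61 FPKM in floxed libraries, so the class totals overlapped.

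The class 6 semaphorins, transmembrane proteins that bind A-type plexins, held the lowest and the highest log2 fold change of the tested members. Sema6b (ENSMUSG00000001227, chromosome 17, 56123085 to 56140343) measured 1.03, 1.72 and 2.21 CPM in Vav1-Cre libraries and 3.97, 6.22 and 5.92 CPM in floxed libraries. The groups did not overlap, and the log2 fold change was -1.70 (SE 0.312). In counts these were sums of 75 over the Vav1-Cre libraries and 301 over the floxed libraries.

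Sema6d is a ligand of plexin A1 in heart development and on dendritic cells (ENSMUSG00000027200, chromosome 2, 124089969 to 124667770). It measured 4.14, 4.63 and 2.34 CPM in Vav1-Cre libraries and 1.27, 0.322 and 1.61 CPM in floxed libraries. The groups did not overlap, and the log2 fold change came to 1.79 (SE 0.479, edgeR adjusted p = 0.0279). The call was lost without Vav1-Cre 1 (0.113), Vav1-Cre 2 (0.103), floxed 1 (0.0855) or floxed 2 (0.0554), all edgeR adjusted p. Only 2 floxed libraries reached the level of the count filter, so the filter admitted Sema6d through the Vav1-Cre libraries. Its adjusted p therefore describes the gene and gives no support for a rise. Sema6a, which binds plexin A2 and plexin A4 (ENSMUSG00000019647, chromosome 18, 47235598 to 47368870), was rare, with 16, 14 and 11 counts in Vav1-Cre libraries and 5, 4 and 6 counts in floxed libraries. Its groups did not overlap, and the log2 fold change was 1.72 (SE 0.526). Since no floxed library reached the level of the filter, Sema6a is described with no test. Sema6c measured 1.94, 1.92 and 2.07 CPM in Vav1-Cre libraries and 3.07, 2.57 and 1.61 CPM in floxed libraries, and did not pass (log2 fold change -0.29, edgeR adjusted p = 0.574).

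Markers of several mature cell types, B cells among them, stood apart in the same libraries as Sema6d. B-cell marker sums were 2909, 2840 and 1427 CPM in the Vav1-Cre libraries and 490.5, 323.8 and 768.3 CPM in the floxed libraries. Plasma cell marker sums were 4452, 4623 and 2022 CPM in the Vav1-Cre libraries and 465.1, 303.4 and 869.3 CPM in the floxed libraries. Sema6d was likewise lowest in Vav1-Cre 3 among the Vav1-Cre libraries, and it was highest in floxed 3 and lowest in floxed 2 among the floxed libraries. Of the 10 B-cell markers listed, 6 passed the test, all higher in Vav1-Cre libraries, beside 10.1% of all tested genes. None of the 10 was at 0 in all libraries. Within their groups, plasmacytoid dendritic cell and macrophage marker sums were also lowest in Vav1-Cre 3, highest in floxed 3 and lowest in floxed 2. The part of B-lineage or other mature-cell RNA in the Sema6d result was not tested.

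None of the 6 class 4 semaphorins passed, although they made up most of the semaphorin RNA. Sema4d measured 69.72, 77.44 and 76.19 CPM in Vav1-Cre libraries and 83.44, 71.66 and 67.61 CPM in floxed libraries. The groups overlapped, and the log2 fold change came to 0.00 (SE 0.089, edgeR adjusted p = 0.982). Sema4c, a ligand of plexin B2, measured 8.73, 8.60 and 8.83 CPM in Vav1-Cre libraries and 12.28, 12.17 and 10.60 CPM in floxed libraries. It was the class 4 member whose groups did not overlap, and its log2 fold change of -0.42 (SE 0.145) missed the threshold (edgeR adjusted p = 0.0613). With upper-quartile scaling Sema4c passed (0.0406), as it did among genes with a mean count of at least 50 (0.0498).

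Sema4b measured 34.79, 32.47 and 26.82 CPM in Vav1-Cre libraries and 22.61, 23.31 and 29.55 CPM in floxed libraries. The groups overlapped through Vav1-Cre 3 and floxed 3, and the log2 fold change came to 0.32 (SE 0.130, edgeR adjusted p = 0.108). Sema4b passed without Vav1-Cre 3 (adjusted p = 0.0278) or without floxed 3 (adjusted p = 0.0418). Sema4a was the most variable abundant ligand, at 34.67, 29.03 and 51.98 CPM in Vav1-Cre libraries and 45.43, 41.91 and 25.94 CPM in floxed libraries. Its groups overlapped widely, with a log2 fold change of 0.03 (SE 0.330, edgeR adjusted p = 0.964). Within each group its order was that of the summed neutrophil markers, which were 19380, 12720 and 33480 CPM in Vav1-Cre libraries and 28270, 21400 and 16840 CPM in floxed libraries. None of the 8 neutrophil markers passed the test, and their part in the spread of Sema4a was not tested.

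Sema7a, which ranked above Sema4c by FPKM, and the low ligands Sema4f and Sema4g did not pass the test. Sema4g measured 2.72, 2.71 and 3.75 CPM in Vav1-Cre libraries and 3.49, 2.73 and 3.71 CPM in floxed libraries. Sema4f measured 2.13, 2.12 and 3.41 CPM in Vav1-Cre libraries and 3.44, 3.43 and 1.51 CPM in floxed libraries. Sema7a, a lipid-anchored semaphorin that binds plexin C1 and beta1 integrins, measured 7.50, 9.26 and 7.02 CPM in Vav1-Cre libraries and 8.84, 8.58 and 9.10 CPM in floxed libraries. For each of these 3 genes the groups overlapped, and the edgeR adjusted p was 0.797 for Sema4g, 0.832 for Sema4f and 0.564 for Sema7a. The class 5 semaphorins Sema5a and Sema5b, which carry thrombospondin repeats, did not pass the filter.

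Among the receptors Plxnd1 and Plxnc1 fell and Plxna1 rose. Plxnd1, a receptor of Sema3e known from blood vessel patterning and thymocyte migration (ENSMUSG00000030123, chromosome 6, 115954811 to 115995005), measured 30.33, 29.96 and 30.70 CPM in Vav1-Cre libraries and 38.86, 39.55 and 40.10 CPM in floxed libraries. Within a group the highest library was at most 1.03 times the lowest, whereas the groups lay 1.30-fold apart. The mean was 30.3 ± 0.373 CPM in Vav1-Cre libraries and 39.5 ± 0.622 CPM in floxed libraries (SD, n = 3 each), a log2 fold change of -0.38 (SE 0.084, edgeR adjusted p = 0.00896). The adjusted p stayed at or below 0.0402 whichever library was left out. Its ligand Sema3e did not pass the filter.

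Plxnc1, the receptor of Sema7a (ENSMUSG00000074785, chromosome 10, 94790866 to 94944835), measured 26.97, 29.69 and 34.85 CPM in Vav1-Cre libraries and 43.89, 45.83 and 35.96 CPM in floxed libraries. The groups did not overlap, but Vav1-Cre 3 and floxed 3 lay close together. The log2 fold change came to -0.46 (SE 0.119, edgeR adjusted p = 0.0199). The call was lost without Vav1-Cre 1 (0.101), Vav1-Cre 2 (0.0807), floxed 1 (0.0765) or floxed 2 (0.0942), and with limma on log2(FPKM + 1) (0.0850), all as adjusted p.

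Plxna1, which pairs with neuropilin-1 for class 3 semaphorins and binds Sema6d (ENSMUSG00000030084, chromosome 6, 89316314 to 89362620), measured 9.96, 9.99 and 7.36 CPM in Vav1-Cre libraries and 3.76, 4.07 and 6.94 CPM in floxed libraries. The groups did not overlap, and again Vav1-Cre 3 and floxed 3 lay nearest to each other, as they did for the B-cell marker sums given above. The log2 fold change came to 0.89 (SE 0.246, edgeR adjusted p = 0.0271). The call was lost without Vav1-Cre 1 (0.112), Vav1-Cre 2 (0.103), floxed 1 (0.107) or floxed 2 (0.121), with limma on log2(FPKM + 1) (0.107) and with edgeR's robust option off (0.0510), all as adjusted p. The part of B-lineage or other mature-cell RNA in the Plxna1 result was not tested.

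**Figure D3:**
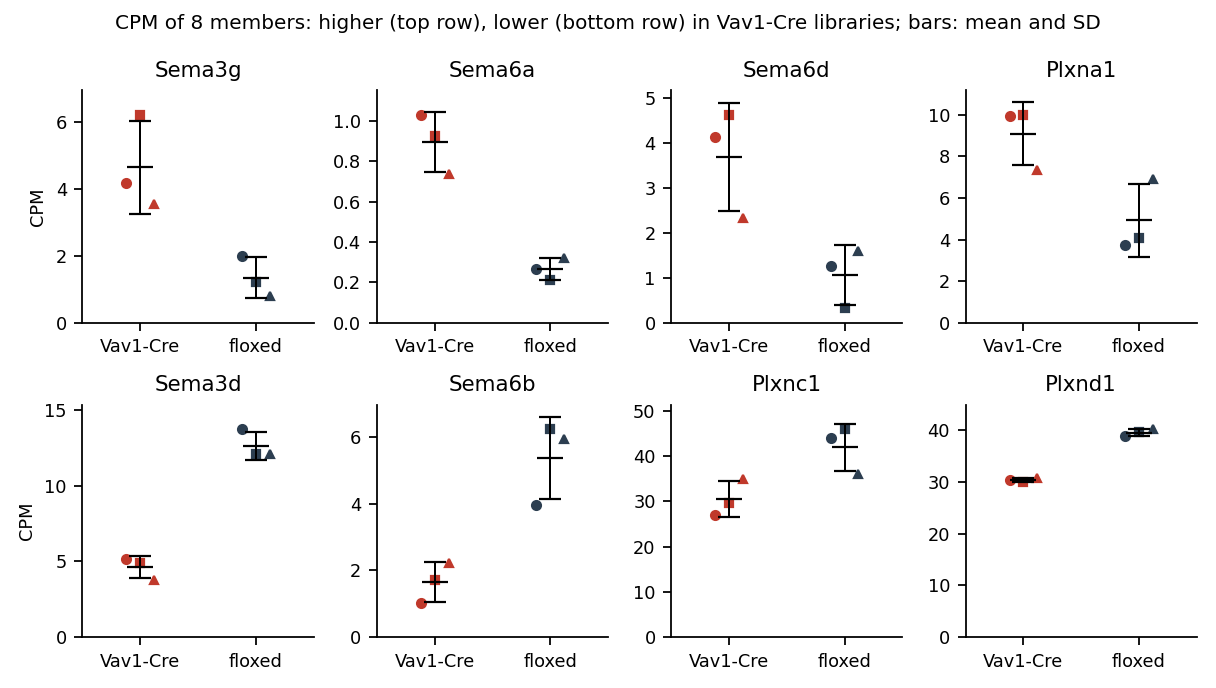
CPM of 8 members in each library, with group means and SD: Sema6d, Sema3g, Sema6a and Plxna1 are higher in the Vav1-Cre libraries, and Sema6b, Sema3d, Plxnc1 and Plxnd1 are lower. Groups do not overlap in any panel, and Vav1-Cre 3 and floxed 3 lie nearest to each other for Plxna1 and Plxnc1.

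The other receptors did not pass. Plxnb2, a receptor of class 4 semaphorins that is also known to bind angiogenin on blood progenitors, measured 55.75, 49.14 and 44.48 CPM in Vav1-Cre libraries and 43.41, 34.52 and 40.75 CPM in floxed libraries. Its groups did not overlap, and its log2 fold change of 0.33 (SE 0.108) lay just outside the threshold (edgeR adjusted p = 0.0505). It passed with RLE scaling (0.0480), without the count filter (0.0154), without immunoglobulin genes (0.0422), with a gene length offset (0.0267) and without Vav1-Cre 3 (0.0162), all as adjusted p. Nrp1, neuropilin-1, a co-receptor of class 3 semaphorins and of VEGF, measured 6.60, 7.80 and 7.96 CPM in Vav1-Cre libraries and 5.61, 4.93 and 4.79 CPM in floxed libraries. Its groups did not overlap (log2 fold change 0.54, SE 0.189, edgeR adjusted p = 0.0649), and it passed with the length offset (0.0278).

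Plxna3, a plexin that works with neuropilin-2, measured 5.24, 6.35 and 7.69 CPM in Vav1-Cre libraries and 6.78, 7.02 and 7.43 CPM in floxed libraries, with overlapping groups (edgeR adjusted p = 0.664). Nrp2 and Plxnb3 were tested but not expressed. Nrp2, neuropilin-2, averaged 1.54 ± 0.294 CPM in Vav1-Cre libraries and 0.946 ± 0.346 CPM in floxed libraries (SD, n = 3 each, edgeR adjusted p = 0.260). Plxnb3, a receptor of Sema5a, averaged 1.05 ± 0.268 CPM in Vav1-Cre libraries and 0.356 ± 0.217 CPM in floxed libraries (SD, n = 3 each, edgeR adjusted p = 0.0683). Only 1 floxed library reached the level of the count filter, so the filter admitted Plxnb3 through the Vav1-Cre libraries. Plxna2, Plxna4 and Plxnb1 did not pass the filter.

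Ligands and receptors were set side by side. Of 13 tested ligands 5 passed, 3 higher (Sema3g, Sema6a and Sema6d) and 2 lower (Sema3d and Sema6b). This ligand count describes the genes and supports nothing. The falls of Sema3d and Sema6b were known beforehand, and the filter admitted Sema6a and Sema6d through the Vav1-Cre libraries. Of 8 tested receptors 3 passed, 1 higher (Plxna1) and 2 lower (Plxnc1 and Plxnd1). Without Sema3d, Sema6b and the 3 genes admitted through the Vav1-Cre libraries, 1 of 9 ligands (11.1%) and 3 of 7 receptors (42.9%) passed, beside 17.9% of all tested genes. These counts are small, and the difference between the sides was not tested. The summed ligand level was 29.3, 30.1 and 32.2 FPKM in Vav1-Cre libraries and 33.5, 31.0 and 28.4 FPKM in floxed libraries. The summed receptor level was 17.4, 17.1 and 17.1 FPKM in Vav1-Cre libraries and 18.2, 17.3 and 17.4 FPKM in floxed libraries. Ligand sums overlapped, and their means stood at a ratio of 0.986 (Vav1-Cre over floxed). Receptor sums stood at a ratio of 0.973.

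**Figure D4:**
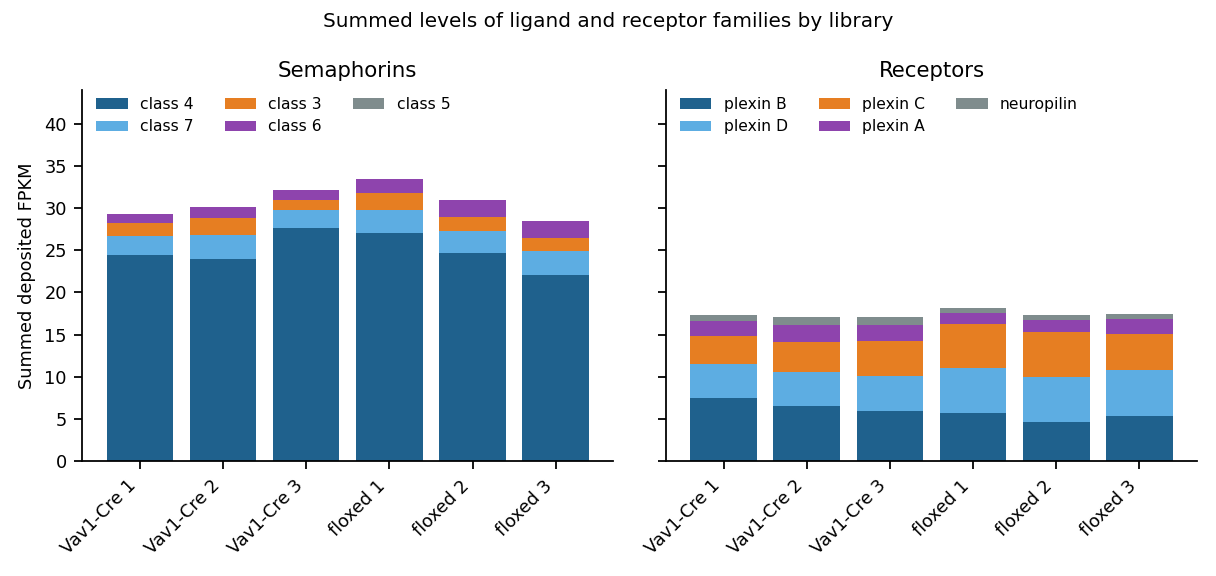
Summed deposited FPKM in each of the 3 Vav1-Cre and 3 floxed libraries, stacked by semaphorin class (left) and by receptor family (right). Class 4 makes up most of every ligand bar. Ligand sums lie between 28.4 and 33.5 FPKM and receptor sums between 17.1 and 18.2 FPKM in all 6 libraries.

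Within the near-equal receptor total, families lay in both directions. Plexin A genes summed to 1.80, 1.95 and 1.83 FPKM in Vav1-Cre libraries and 1.34, 1.39 and 1.74 FPKM in floxed libraries. Plexin B genes summed to 7.44, 6.52 and 5.93 FPKM in Vav1-Cre libraries and 5.73, 4.60 and 5.31 FPKM in floxed libraries. Neuropilins summed to 0.80, 0.95 and 0.92 FPKM in Vav1-Cre libraries and 0.63, 0.56 and 0.60 FPKM in floxed libraries. These 3 families had every Vav1-Cre library above every floxed library, where 37.2% of all tested genes had groups that did not overlap. Plxnb2 and Nrp1, which made up most of the plexin B and neuropilin sums, did not pass the test. Plexin D1, at 4.13, 4.09 and 4.20 FPKM in Vav1-Cre libraries and 5.28, 5.34 and 5.47 FPKM in floxed libraries, lay the other way round. So did plexin C1, at 3.21, 3.55 and 4.17 FPKM in Vav1-Cre libraries and 5.22, 5.41 and 4.29 FPKM in floxed libraries. With the highest member of each side left out, Plxnb2 among them, the receptor ratio was 0.855. These sums carry no test.

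A list of 64 genes that work with the pathway was set beside the members: receptor partners, GTPases with their regulators, and cytoplasmic relays. Of these 56 were tested and 10 passed, 7 higher and 3 lower in Vav1-Cre libraries, which is 17.9% and the same as the background. By role, 3 of 10 receptor partners, 2 of 24 GTPases and regulators and 5 of 22 relays passed. The higher receptor partners Chl1 and Erbb2 had 32, 9 and 6 counts and 13, 2 and 12 counts in floxed libraries. Not all of these reached the level of the count filter, so the filter admitted both genes through the Vav1-Cre libraries. The partner counts include these genes and support nothing. Leaving out 1 library moved the count between 4 and 17.

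The partners named here were among those with the smallest p in each direction. Fyn, a Src-family kinase that relays class 3 signals from plexin A, measured 85.69, 87.36 and 72.51 CPM in Vav1-Cre libraries and 51.99, 52.95 and 58.56 CPM in floxed libraries (log2 fold change 0.59, SE 0.090, edgeR adjusted p = 0.00127). Dpysl2, also called CRMP2, the microtubule-binding relay of Sema3a, measured 11.06, 10.18 and 6.96 CPM in Vav1-Cre libraries and 4.76, 3.22 and 3.77 CPM in floxed libraries (log2 fold change 1.26, SE 0.230, edgeR adjusted p = 0.00328). Both rose without overlap of the groups. Cfl1, cofilin, which severs actin filaments, averaged 2335 ± 125.9 CPM in Vav1-Cre libraries and 1847 ± 95.3 CPM in floxed libraries (SD, n = 3 each, log2 fold change 0.34, edgeR adjusted p = 0.0113, up to 0.0561 with 1 library left out).

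Ptk7 and Limk1 fell. Ptk7, a kinase-like receptor that associates with plexins, measured 16.43, 17.19 and 16.12 CPM in Vav1-Cre libraries and 23.77, 22.67 and 23.04 CPM in floxed libraries (log2 fold change -0.48, SE 0.105, edgeR adjusted p = 0.00826). Limk1, the kinase that inactivates cofilin, measured 30.40, 34.92 and 34.58 CPM in Vav1-Cre libraries and 41.24, 45.72 and 43.12 CPM in floxed libraries (log2 fold change -0.38, SE 0.092, edgeR adjusted p = 0.0140, up to 0.0766 with 1 library left out). For both genes every Vav1-Cre library lay below every floxed library.

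Markers of other cell types moved with the comparison, and several of those types are known to use semaphorins. Of the 9 gate markers 7 were lower and Ly6a, which encodes Sca-1, was higher in Vav1-Cre libraries. Kit, which encodes c-Kit, measured 84.53, 92.32 and 113.12 CPM in Vav1-Cre libraries and 153.80, 172.74 and 148.40 CPM in floxed libraries. Among the markers tested, 4 of 7 plasma cell, 4 of 7 plasmacytoid dendritic cell, 7 of 12 macrophage and 2 of 7 erythroid genes were higher, and none of these lists had a lower call. Of 10 T and NK cell markers 7 were higher and 1 lower. Over all tested genes 10.1% were higher and 7.89% lower. Cd3e, among the higher T and NK cell markers, had 3, 7 and 2 counts in floxed libraries. None of these reached the level of the count filter, so the filter admitted Cd3e through the Vav1-Cre libraries.

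Vessel and stroma markers were divided. Summed endothelial markers ran from 181.8 to 191.5 CPM in Vav1-Cre libraries and from 246.8 to 277.2 CPM in floxed libraries. Of 9 tested genes 1 was higher (Cdh5) and 3 lower (Emcn, Eng and Tie1), beside 10.1% higher and 7.89% lower over all tested genes. Cdh5 had 12, 6 and 11 counts in floxed libraries, not all at the level of the count filter. The filter thus admitted Cdh5 through the Vav1-Cre libraries, and its call gives no support for a rise. Stab2 and Flt1 had log2 fold changes of 1.77 and 1.54 and did not pass (edgeR adjusted p = 0.122 and 0.232). These genes were picked out after their values were seen. The other tested endothelial genes that did not pass went the other way. Tek, Vwf and Pecam1 had log2 fold changes of -0.87, -0.84 and -0.17 (edgeR adjusted p = 0.0626, 0.0696 and 0.165). Summed stromal markers ran from 22.4 to 29.4 CPM in Vav1-Cre libraries and from 36.5 to 37.6 CPM in floxed libraries, with 1 of 4 tested genes lower. That gene, Pdgfrb, made up most of the stromal sum. Summed megakaryocyte markers ran from 40.2 to 72.0 CPM in Vav1-Cre libraries and from 68.0 to 120.0 CPM in floxed libraries, with 1 of 5 tested genes lower. The part of these cell types in any member's result was not tested.

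**Figure D5:**
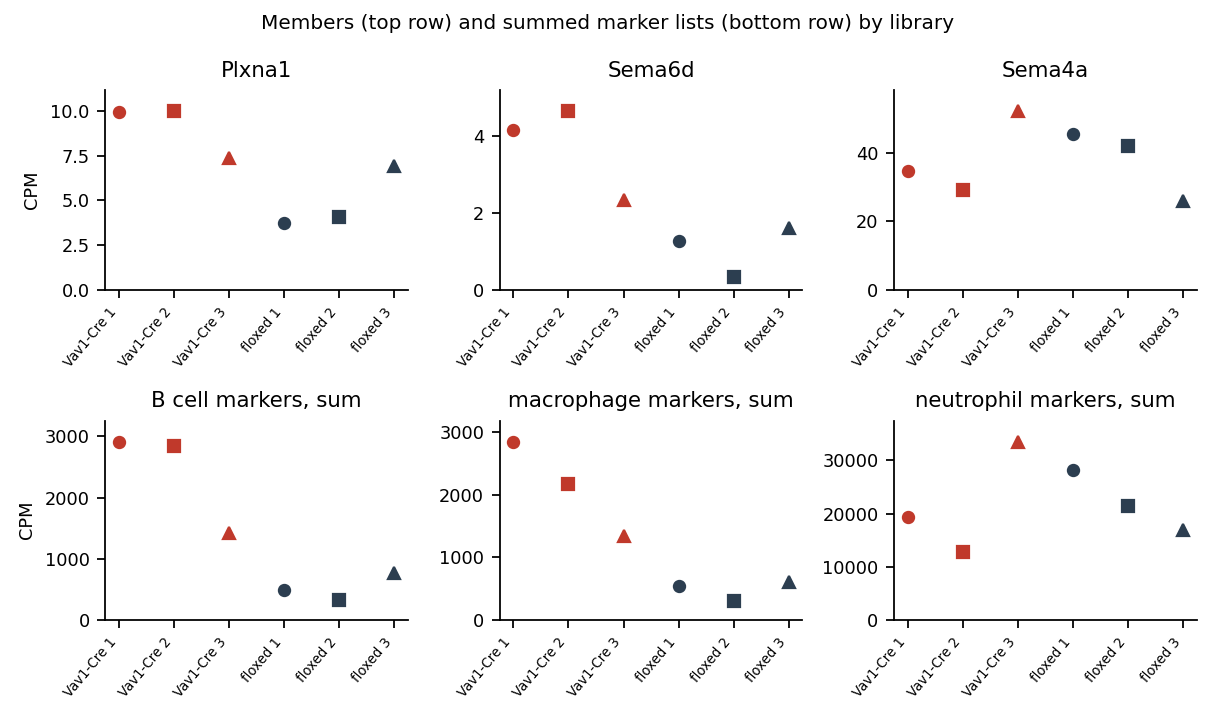
CPM of Plxna1, Sema6d and Sema4a (top row) and summed CPM of B-cell, macrophage and neutrophil markers (bottom row) in each of the 3 Vav1-Cre and 3 floxed libraries. Plxna1, Sema6d and the B-cell and macrophage sums are lowest in Vav1-Cre 3 and highest in floxed 3 within their groups, and Sema4a follows the order of the neutrophil sum.

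Transcript length also moved with the fold change across all genes, with a median log2 fold change of 0.20 in the shortest 10% of tested genes and -0.14 in the longest 10%. Members are long, 3298 to 11842 bases against a median of 3855 for tested genes, and 11 of the 21 tested members fell among the longest 20%. With an offset for length, 10 of 21 tested members passed, 6 higher and 4 lower. Over all genes 2449 of 14608 passed with the offset, 1543 higher and 906 lower. The member count again includes Sema3d, Sema6b and genes that the filter admitted through the Vav1-Cre libraries, and supports nothing. The falls of Plxnd1 and Plxnc1 became smaller, from -0.38 to -0.29 and from -0.46 to -0.35 (edgeR adjusted p = 0.033 and 0.0458 with the offset). The rise of Plxna1 became larger, from 0.89 to 1.0 (edgeR adjusted p = 0.0191 with the offset).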

How the data were processed

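RNA-seq of 3 Vav1-Cre and 3 floxed libraries was analysed. TRIzol extraction of total RNA and Illumina TruSeq library preparation are stated, per the labels' protocols. The authors deposited, per the file headers, whole-number counts and FPKM values for 54532 genes per library. Counts were used as deposited. The deposited FPKM values implied 1 length per gene in all libraries (within 0.01%) and library sizes already scaled between libraries by the authors. The submitters' processing notes name Bowtie and the build mm8. How reads were counted, on which strand and against which annotation was not given in the sources used here. Symbols came from the Ensembl identifiers (54409 matched, 123 did not), and coordinates are those of GRCm38.

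Counts were tested with edgeR 4.0.16 in R 4.3.3 (quasi-likelihood, robust, TMM, default filter with a minimum count of 10, Benjamini-Hochberg adjustment over 14608 genes, threshold 0.05). The SE is the size of the log2 fold change divided by the square root of F. Every expressed or called member was to be named with its values, and up to 3 partners per direction by smallest p, of which 1 is not reported here. Members and lists were chosen with earlier results of these data known. Alternatives were DESeq2 1.42.0, limma 3.58.1 (voom, and log2 of FPKM plus 1 or 0.1, for genes with a mean of at least 0.5 FPKM or with no filter), upper-quartile and RLE scaling, the robust option off, a filter at a mean count of 50 or no count filter, no immunoglobulin genes, a length offset per library, and each library left out. Scripts were tested on simulated counts. No libraries were duplicates (chi-square per gene at least 11.3). Depth was 15406314 to 18106065 counts, and floors cover counting error only.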

Additional observations from a re-analysis of the deposited data

How the results depend on the processing

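Over 18 alternatives, 307 fold changes of single members kept their direction and side of the threshold, 10 newly passed, 32 no longer passed and 12 changed sign. Members past the threshold numbered 6 to 10 in the settings fitted to counts of all 6 libraries, 4 with log2(FPKM + 1) and with log2(FPKM + 0.1), 1 with log2(FPKM + 1) and no filter (8 as reported), and 4 to 9 with 1 library left out. All genes gave 2310 to 3246 in the settings fitted to counts of all 6 libraries, 1581 with log2(FPKM + 1) and 1532 with log2(FPKM + 0.1). They gave 660 with log2(FPKM + 1) and no filter, and 1218 to 3295 with 1 library left out. Partners gave 8 to 14 in the settings fitted to counts, and 7 with log2(FPKM + 1) and with log2(FPKM + 0.1). They gave 2 with log2(FPKM + 1) and no filter, and 4 to 17 with 1 library left out. The causes were not tested. Of all calls 56% were higher with TMM (1469 of 2621), against 1215 higher and 1430 lower with upper-quartile scaling.

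Sign changes came only in members far from the threshold. Sema4a was at -0.01 with upper-quartile scaling, -0.24 without Vav1-Cre 3 and -0.19 without floxed 3, within -0.24 to 0.20 with 1 library left out. Sema4d was at -0.04 with upper-quartile scaling, -0.02 without the filter, -0.01 at a mean count of 50, and -0.07 to 0.08 with 1 library left out. Sema4f reached 0.04 and 0.03 without floxed 1 and floxed 2, within -0.44 to 0.04.

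Without the highest member of each side the receptor sum had a ratio of 0.855 and the ligand-to-receptor ratio one of 1.143 between the groups. With 1 library left out the ratios were 0.947 to 1.03 for ligands, 0.980 to 1.04 for ligands over receptors and 0.964 to 0.989 for receptors. A threshold of 1 FPKM left 8 expressed members, and leaving out 1 library gave 15 to 16. No paired analysis was possible because the labels give no replicate numbers shared between the groups. Low counts limit Sema6a, Plxnb3 and Nrp2, where a difference of a few reads changes the fold.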
